A study of Mus musculus with 4 samples.

Results

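The genes described here are the D-type cyclins Ccnd1, Ccnd2 and Ccnd3, their kinase partners Cdk4 and Cdk6, and the inhibitors Cdkn1a, Cdkn1b and Cdkn1c, 8 of the 32285 genes counted in hypothalamic nuclei. They were chosen by name from values measured in these libraries, the transcript counts summed per library over each main cluster, with oligodendrocyte progenitor cells (OPCs) and oligodendrocytes in view. Their levels and genotype differences in these 2 clusters are therefore given as a description, with no p-value. In the other clusters p-values of the members are printed, but these too are a description. The 2 groups were adult male wild-type (WT) mice and TRα1+m mice, all on the C57/BL6NCr background and none of them treated. TRα1+m mice are heterozygous for an arginine-to-cysteine change in the thyroid hormone receptor TRα1. The allele is carried in the germ line and so is present in every cell type. Each library held nuclei pooled from the hypothalamus of 3 mice of a genotype, and each of 2 experimental repeats gave a library per genotype, so that n = 2 pools per group.

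D-type cyclins bind and activate Cdk4 and Cdk6, which phosphorylate the retinoblastoma protein and so release the E2F factors that drive entry into S phase. The Cip/Kip inhibitors p21 (Cdkn1a), p27 (Cdkn1b) and p57 (Cdkn1c) bind cyclin-kinase complexes and hold cells in G1. In the oligodendrocyte lineage, OPCs go on dividing in the adult brain, whereas oligodendrocytes are post-mitotic, and p27 and thyroid hormone are both known for their part in the exit of progenitors from the cycle.

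The annotation held 2110 OPC and 6135 oligodendrocyte nuclei, from 422 to 679 and from 1396 to 1685 per library. Their transcripts were counted as unique molecular identifiers (UMIs), 1314390 to 1616000 per library in OPCs and 2525236 to 2713480 in oligodendrocytes. Levels are in CPM, the UMIs of a gene as a share of all UMIs of the cluster scaled to 1e+06, so that 3 UMIs correspond to at most 2.28 CPM in OPCs and 1.19 CPM in oligodendrocytes. The 8 OPC marker genes summed to between 13790.2 and 15496 CPM in OPCs and to no more than 386 CPM in oligodendrocytes. The 10 oligodendrocyte marker genes summed to 11091 to 28286 CPM in oligodendrocytes and to at most 2053 CPM in OPCs. Both labels therefore matched their markers. The oligodendrocyte sum followed the repeat, at 12365 CPM in WT and 11091 CPM in TRα1+m in repeat 1 and at 23619 and 28286 CPM in repeat 2. Between 44 and 64 barcode sequences were shared by each pair of libraries. Another neuronal cluster, Neurons_2, was not used here, since 852 of its 864 nuclei came from the TRα1+m library of repeat 2.

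Ccnd3, the gene with the widest difference between the genotypes, is described with its sequence first. The gene (ENSMUSG00000034165) lies at chr17:47505051-47599691 on the plus strand of GRCm38, and its 361 last bases overlap Bysl on the opposite strand. RefSeq gives the gene 2 starts 88416 bases apart, with 13 and 4 of the 21 GENCODE M21 transcripts starting within 1000 bases of them. The UMIs do not tell which start was used. The 250 bases before each start, from RefSeq on GRCm38.p6 and at chr17:47504801-47505050 and chr17:47593217-47593466, are shown as the upstream regions of that gene. Capitals mark matches to AGGTCA, the core of a thyroid hormone receptor element, or to the Sp1 box GGGCGG, on either strand.
Ccnd3, upstream start: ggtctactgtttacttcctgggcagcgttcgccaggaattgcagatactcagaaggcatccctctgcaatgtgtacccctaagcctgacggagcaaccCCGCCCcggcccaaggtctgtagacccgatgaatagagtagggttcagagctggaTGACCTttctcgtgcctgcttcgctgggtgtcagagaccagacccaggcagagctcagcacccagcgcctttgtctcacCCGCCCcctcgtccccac
Ccnd3, downstream start: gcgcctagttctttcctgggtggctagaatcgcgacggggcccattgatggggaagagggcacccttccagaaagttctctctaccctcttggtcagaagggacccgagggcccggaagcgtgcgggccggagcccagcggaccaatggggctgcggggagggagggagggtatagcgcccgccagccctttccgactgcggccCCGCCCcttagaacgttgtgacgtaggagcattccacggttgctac
The upstream window held 1 match to AGGTCA and 2 to GGGCGG, and the downstream window held no match to AGGTCA and 1 to GGGCGG. None of these matches overlapped another. Neither window held the E2F sites TTTCGCGC or TTTGGCGC or the E-box CACGTG. Of 32851 windows of this length in the table, 14.0% held AGGTCA, 32.7% GGGCGG, 6.02% CACGTG, 0.256% TTTCGCGC and 0.417% TTTGGCGC. A match describes these letters and is not evidence that a factor binds there.

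The other members lie on GRCm38 at chr7:144929931-144939925 (Ccnd1, minus strand), chr6:127125162-127152193 (Ccnd2, minus), chr10:127063534-127067920 (Cdk4, plus), chr5:3341485-3531008 (Cdk6, plus), chr17:29090976-29100727 (Cdkn1a, plus), chr6:134920401-134925513 (Cdkn1b, plus) and chr7:143458339-143461050 (Cdkn1c, minus). Reads in introns were counted too, so a value covers the whole gene.

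In oligodendrocytes, Ccnd3 was counted 105 and 107 times in the WT libraries of repeats 1 and 2. In the TRα1+m libraries it was counted 574 and 639 times. The corresponding levels were 40.5 and 39.4 CPM in WT and 212 and 253 CPM in TRα1+m. Both mutant libraries stood far above both WT libraries, at 233 ± 28.9 against 40.0 ± 0.761 CPM (SD, n = 2 pools each), 5.82 times the WT mean. The ratio was 5.24 within repeat 1 and 6.42 within repeat 2. In the edgeR fit the log2 fold change was 2.61 with a standard error of 0.19, and it was 2.65 without WT replicate 1 and 2.57 without WT replicate 2. Over all genes in oligodendrocytes, 13 of 12630 passed an adjusted p of 0.05 (0.103%, 5 higher and 8 lower). Ccnd3 was one of them, but not when either WT library was left out, and since this contrast served to choose the gene, nothing is read from its place in that count.

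The other D-type cyclins did not show such a difference in oligodendrocytes. Ccnd1, the D-type cyclin best known as a target of growth factor signaling, was at 12.3 and 12.9 CPM in WT and at 11.1 and 6.73 CPM in TRα1+m. Both mutant libraries were below the WT libraries, but the mutant pool of repeat 1 was close to them. The log2 fold change was -0.43 (SE 0.35). Ccnd2, typical of neural progenitors, stood at 11.96 and 7.74 CPM in WT and 13.3 and 3.96 CPM in TRα1+m, and the genotypes overlapped. In both genotypes the library of repeat 1 held more Ccnd2 than that of repeat 2, and its log2 fold change was -0.12 (SE 0.58).

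The kinases gave no wide difference in oligodendrocytes. Cdk4 was at 14.7 and 13.6 CPM in WT and at 14.4 and 14.3 CPM in TRα1+m, the most even of the members, with a log2 fold change of 0.08 (SE 0.27). Cdk6 was counted 8 and 5 times in WT and 5 and 0 times in TRα1+m. It did not pass the filter on low counts, and 0 UMIs in the mutant pool of repeat 2 allow a level of up to 1.19 CPM. Counts this small set no direction.

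Of the inhibitors, Cdkn1b, which rested on the most UMIs, had overlapping genotypes in oligodendrocytes, at 32.8 and 25.8 CPM in WT and 29.9 and 34.5 CPM in TRα1+m (log2 fold change 0.20, SE 0.24). Cdkn1a, the p53-induced inhibitor, was at 2.70 and 5.53 CPM in WT and 4.80 and 2.38 CPM in TRα1+m, on no more than 15 UMIs in a library. Its genotypes overlapped, with a log2 fold change of -0.12 (SE 0.62). Cdkn1c was counted 9 times in each WT library and 15 and 17 times in the mutant libraries, or 3.47 and 3.32 against 5.54 and 6.73 CPM. The genotypes did not overlap, but on no more than 17 UMIs in a library, and the log2 fold change was 0.91 (SE 0.47). In all, 7 of the 8 genes passed the filter on low counts in oligodendrocytes, and 3 of these 7 (Ccnd1, Ccnd3 and Cdkn1c) had genotypes that did not overlap. Over all genes past the filter 32.3% did not overlap.

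**Figure D1:**
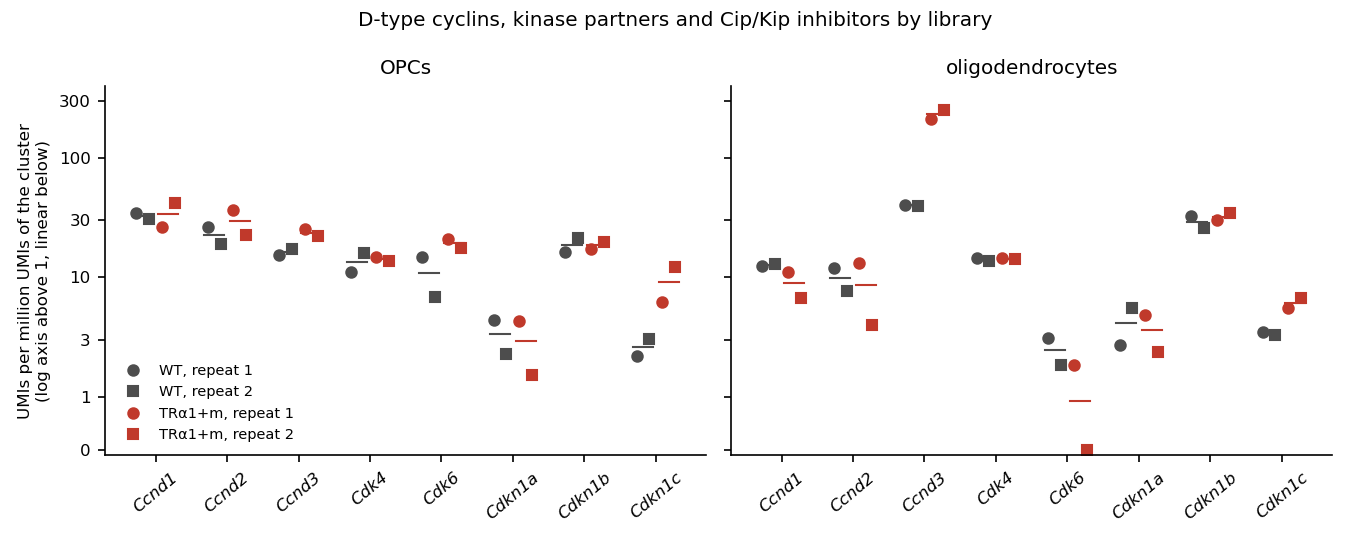
Levels of the 8 genes in OPCs (left) and oligodendrocytes (right) in CPM, on an axis that is logarithmic above 1 and linear below. Each point is a library of 3 pooled mice, circles for repeat 1 and squares for repeat 2, WT in gray and TRα1+m in red, and bars are the mean of 2 libraries. Ccnd3 in oligodendrocytes lies at 39.4 to 40.5 in WT and at 212 to 253 in TRα1+m.

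In OPCs no gene was called between genotypes by edgeR (0.0% of 11248 tested genes; 185 had an unadjusted p below 0.05, and DESeq2 called 1). The D-type cyclins stood as follows. Ccnd1 was at 34.7 and 31.03 CPM in WT and 26.6 and 41.8 CPM in TRα1+m, so that the mutant libraries enclosed the WT libraries (log2 fold change 0.00, SE 0.31). Ccnd2 was at 26.6 and 18.9 CPM in WT and 36.5 and 22.8 CPM in TRα1+m, with overlapping genotypes and, as in oligodendrocytes, more in repeat 1 than in repeat 2 (log2 fold change 0.35, SE 0.36). Ccnd3 was at 15.5 and 17.4 CPM in WT and 25.4 and 22.1 CPM in TRα1+m. Both mutant libraries lay above the WT libraries, at 1.44 times the WT mean, on 21 to 41 UMIs a library and with a log2 fold change of 0.49 (SE 0.32).

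Cdk4 was at 11.1 and 15.9 CPM in WT OPCs and at 14.9 and 13.7 CPM in TRα1+m OPCs, and the genotypes overlapped (log2 fold change 0.05, SE 0.37). Cdk6 was at 14.8 and 6.81 CPM in WT and at 21.04 and 17.5 CPM in TRα1+m, on 9 to 34 UMIs. The mutant libraries were above both WT libraries, and the log2 fold change of 0.79 (SE 0.44) was 0.31 without WT replicate 2 and 1.498 without WT replicate 1.

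Among the inhibitors, Cdkn1b was at 16.3 and 21.2 CPM in WT OPCs and 17.3 and 19.8 CPM in TRα1+m OPCs, with the mutant libraries between the WT libraries (log2 fold change -0.05, SE 0.33). Cdkn1a was counted 2 to 7 times in a library and Cdkn1c 3 and 4 times in WT and 10 and 16 times in TRα1+m. Both were removed by the filter on low counts. Cdkn1c rested on 33 UMIs in all, and without the filter its log2 fold change was 1.703 with a standard error of 0.70. Of the 6 genes past the filter in OPCs, Ccnd3 and Cdk6 had genotypes that did not overlap, as did 27.3% of all genes past the filter. Some lists of markers of other cells also lay apart between the genotypes in OPCs. With so few libraries this is common, as the 27.3% of all genes shows, so no difference is read from it. The tanycyte list was at 553 to 573 CPM in WT and 731 to 780 CPM in TRα1+m. Newly formed oligodendrocyte markers were at 1732 to 1747 and 1925 to 2374 CPM. Microglia markers lay close together, at 116.5 to 117.5 and 122 to 127 CPM. The OPC, oligodendrocyte, neuron, astrocyte, endothelial and mural lists overlapped. The tanycyte list includes the collagen gene Col23a1 and was not summed without it in OPCs. The part of other cells in the values of Ccnd3 and Cdk6 was not tested.

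Levels in OPCs and oligodendrocytes were set side by side in the same libraries, as a description, since the clusters were drawn from all genes. Ccnd1, Ccnd2 and Cdk6 were higher in OPCs in 4 of 4 libraries, with ratios of the means of 3.12, 2.84 and 8.87. Ccnd3 and Cdkn1b were higher in oligodendrocytes in 4 of 4 libraries, by 6.78 and 1.65 times over all libraries. For Ccnd3 that ratio pools genotypes that differ, and it was 2.43 in WT and 9.81 in TRα1+m. For Cdk4, Cdkn1a and Cdkn1c the order of the clusters changed between libraries.

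The make-up of the D-type cyclin transcripts was taken from the same UMIs, so it restates the levels above and adds no separate support. Shares of UMIs were not corrected for gene length, and Ccnd3 spans 94641 bases against 9995 for Ccnd1, so a share compares clusters or libraries and not genes. Ccnd3 made up 20.2% and 25.8% of all D-type cyclin UMIs in WT OPCs and 28.7% and 25.4% in TRα1+m OPCs. In oligodendrocytes it made up 62.5% (95% exact binomial interval 54.7 to 69.8) and 65.6% (57.8 to 72.9) in WT and 89.7% (87.1 to 91.9) and 95.9% (94.2 to 97.3) in TRα1+m. The sum of all 3 cyclins was 64.8 and 60.1 CPM in WT oligodendrocytes and 237 and 264 CPM in TRα1+m oligodendrocytes. In OPCs the sum ran from 67.3 to 88.5 CPM over the 4 libraries. These intervals, and those that follow, cover counting error only.

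Across the main clusters, Ccnd3 was highest in microglia/macrophages, at 435 ± 73.4 CPM (SD, n = 4 libraries), and lay above all other clusters in every library. Astrocytes followed at 175 ± 15.2 CPM and oligodendrocytes at 136 ± 112 CPM, whose ranges overlapped because the mutant oligodendrocytes lay above the astrocytes and the WT oligodendrocytes below them. OPCs at 20.1 ± 4.47 CPM and Neurons_1 at 12.3 ± 2.82 CPM overlapped each other. The microglia/macrophage cluster also held markers of mural cells. A list of 8 mural genes summed there to 476 to 933 CPM in WT and 423 to 1383 CPM in TRα1+m. In the other clusters compared here that list reached at most 82.4 CPM. The part of mural cells in the levels of the members in microglia/macrophages was not tested. Ccnd1 was highest in OPCs at 33.6 ± 6.45 CPM and overlapped with microglia/macrophages at 21.7 ± 5.77 CPM. These 2 clusters were above oligodendrocytes (10.8 ± 2.79 CPM), astrocytes (9.19 ± 2.31 CPM) and Neurons_1 (6.26 ± 0.932 CPM), of which each overlapped the next. Ccnd2 ran from 26.2 ± 7.55 CPM in OPCs to 9.24 ± 4.24 CPM in oligodendrocytes, and each cluster overlapped the next in order.

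**Figure D2:**
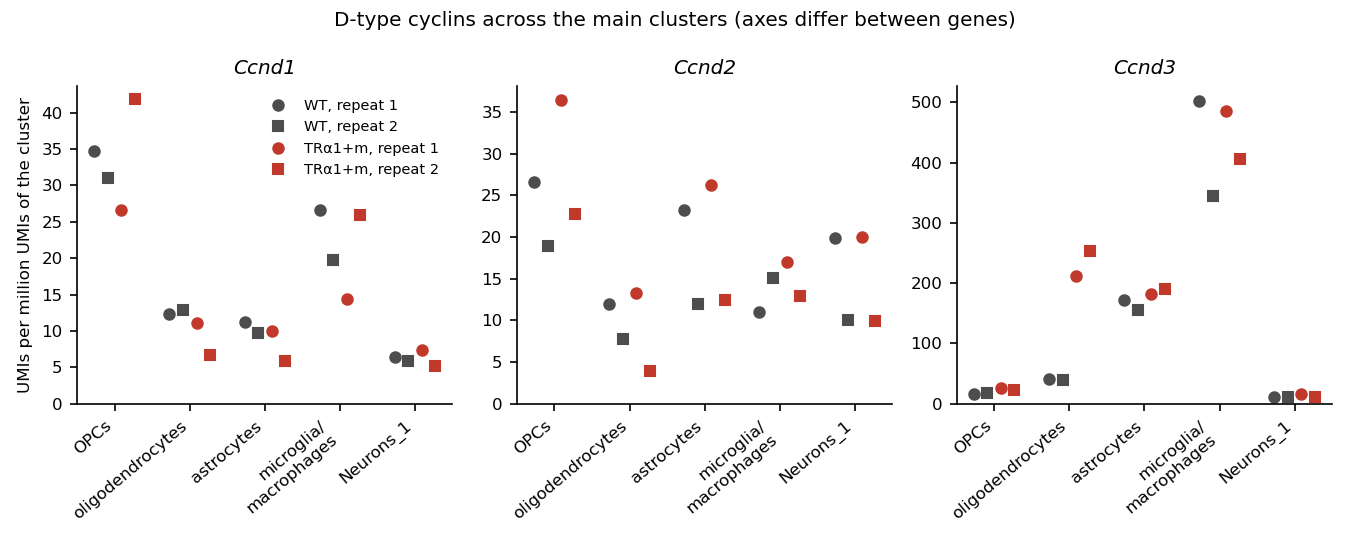
Levels of Ccnd1, Ccnd2 and Ccnd3 in 5 main clusters, in CPM on linear axes that differ between the genes. Each point is a library, circles for repeat 1 and squares for repeat 2, WT in gray and TRα1+m in red. Ccnd1 is highest in OPCs, Ccnd3 in microglia/macrophages, and the genotypes separate widely for Ccnd3 in oligodendrocytes.

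Cdk6 was highest in microglia/macrophages at 108 ± 14.6 CPM, above OPCs (15.03 ± 6.05 CPM) and astrocytes (11.1 ± 5.15 CPM), which overlapped. Neurons_1 and oligodendrocytes lay below these at 2.16 ± 0.445 and 1.69 ± 1.27 CPM and overlapped. Cdk4 differed little between clusters, from 18.1 ± 3.13 CPM in microglia/macrophages to 12.7 ± 1.42 CPM in Neurons_1. Cdkn1b was at 34.0 ± 3.27 CPM in microglia/macrophages, 30.7 ± 3.79 CPM in oligodendrocytes and 26.0 ± 2.26 CPM in astrocytes, and was lower in OPCs (18.6 ± 2.25 CPM) and in Neurons_1 (7.003 ± 0.833 CPM) without overlap between these last clusters. Cdkn1a stayed between 1.88 and 3.85 CPM on average, and Cdkn1c between 1.26 and 15.1 CPM, with microglia/macrophages the most uneven at 5.22 to 27.6 CPM.

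Outside the oligodendrocyte lineage, edgeR fitted the genotype for all 8 genes in astrocytes and Neurons_1 and for 7 in microglia/macrophages. The sums of each main cluster served in the choice of the members, so their p-values here are a description too. edgeR called no gene in astrocytes (0.0% of 14797), microglia/macrophages (0.0% of 10451) or Neurons_1 (0.0% of 19926), with 255, 226 and 193 genes at an unadjusted p below 0.05, and DESeq2 called 1, 0 and 1. None of the members had an unadjusted p below 0.05 in these clusters in either tool. In astrocytes the log2 fold change of Ccnd3 was 0.20 (SE 0.15, edgeR adjusted p 1.00). Ccnd3 was at 172 and 155 CPM in WT astrocytes and at 183 and 190 CPM in TRα1+m astrocytes, without overlap. In microglia/macrophages it was at 503 and 345 CPM in WT and 487 and 407 CPM in TRα1+m, with overlapping genotypes (log2 fold change 0.07, SE 0.29, edgeR adjusted p 1.00). In Neurons_1 it was at 11.8 and 10.4 CPM in WT and 16.4 and 10.5 CPM in TRα1+m, again overlapping (log2 fold change 0.22, SE 0.28, edgeR adjusted p 1.00). The other 7 members had log2 fold changes between -0.39 and 0.58 in astrocytes, between -0.22 and 0.27 in microglia/macrophages, where Cdkn1a was filtered out, and between -0.06 and 0.38 in Neurons_1. Cdk6 in microglia/macrophages did not overlap either, at 95.5 and 99.1 CPM in WT and 108 and 128 CPM in TRα1+m. Nor did Cdkn1c in Neurons_1, at 0.875 and 1.25 CPM in WT and 1.28 and 1.63 CPM in TRα1+m. The share of all genes without overlap was counted only in OPCs and oligodendrocytes, so nothing is read from such cases in other clusters or sub-clusters. The values of Ccnd3 here are listed beside that of oligodendrocytes. The difference between clusters was not tested, since the oligodendrocyte value served to choose Ccnd3.

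**Figure D3:**
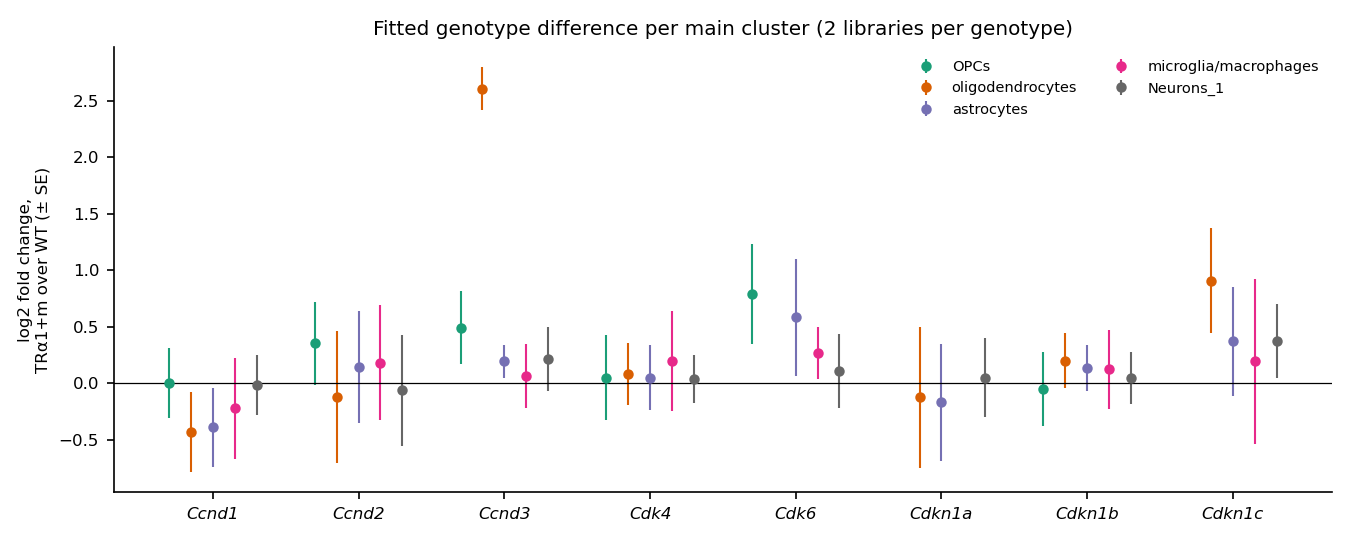
Fitted log2 fold change of TRα1+m over WT for the 8 genes in 5 main clusters, from edgeR on library sums, with bars of 1 standard error on either side. Genes removed by the filter on low counts in a cluster have no point there. Ccnd3 in oligodendrocytes stands at 2.61, and the other points lie between -0.43 and 0.91.

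Among the main clusters compared, Ccnd2 differed more between repeats than between genotypes in all but microglia/macrophages. In Neurons_1 it was at 19.9 and 9.99 CPM in the WT libraries of repeats 1 and 2 and at 20.0 and 9.88 CPM in the mutant libraries. In astrocytes it was at 23.3 and 11.99 CPM in WT and at 26.2 and 12.4 CPM in TRα1+m. The repeat was higher in the same order in OPCs and oligodendrocytes, whereas in microglia/macrophages the WT libraries had the opposite order (10.96 and 15.2 CPM). The repeats also differed in depth and in the mice used, and these cannot be told apart.

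Neurons_1 and astrocytes were divided further, and 14 of their sub-clusters held 10 or more nuclei in each of the 4 libraries. edgeR called 5 of 161387 tests of a gene in a sub-cluster (0.0031%), and no member among 54 such tests. Of these 54, 1 had an unadjusted p below 0.05, that of Cdk6 in the astrocyte sub-cluster (log2 fold change 0.96, SE 0.38), and DESeq2 called none. Ccnd3 had log2 fold changes from -0.20 in Glutamatergic Neurons_3 to 0.41 in tanycytes, the ependymal cells that line the third ventricle. In tanycytes Ccnd3 was at 138 and 112 CPM in WT and at 165 and 166 CPM in TRα1+m, without overlap (edgeR adjusted p 1.00). Among neuronal sub-clusters the one annotated as MCH neurons had the highest mean Ccnd3, at 79.4 CPM, and the others lay between 6.48 and 16.2 CPM. That label was not checked against marker genes. The same sub-cluster also had the highest mean Ccnd1, Ccnd2, Cdk6, Cdkn1a, Cdkn1b and Cdkn1c of these neuronal sub-clusters, but not the highest Cdk4. Its Ccnd3 stood at 74.4 and 65.3 CPM in WT and 108 and 70.4 CPM in TRα1+m, and the genotypes overlapped. The log2 fold change was 0.34 (SE 0.32, edgeR adjusted p 1.00). Cdk6 in tanycytes followed the repeat. It was at 49.4 and 64.2 CPM in the libraries of repeat 1 and at 8.86 and 8.45 CPM in those of repeat 2. Ccnd2 in tanycytes was at 38.7 and 27.6 CPM in WT and at 58.2 and 44.0 CPM in TRα1+m, without overlap. Its log2 fold change was 0.65 (SE 0.33). Cdk6 in the astrocyte sub-cluster did not overlap either, at 3.10 and 5.09 CPM in WT and 7.15 and 8.96 CPM in TRα1+m.

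The level of Ccnd3 in oligodendrocytes was followed to single nuclei. A nucleus carried at least 1 Ccnd3 UMI in 5.61% (95% exact binomial interval 4.54 to 6.83) and 6.16% (4.96 to 7.55) of WT nuclei and in 24.3% (22.2 to 26.4) and 29.8% (27.4 to 32.3) of TRα1+m nuclei. Nuclei with 3 or more Ccnd3 UMIs made up 0.122% and 0.358% in WT and 1.84% and 3.54% in TRα1+m, and no nucleus held more than 8. The 10 nuclei with most Ccnd3 held 20.95% and 25.2% of its UMIs in WT and 6.79% and 7.20% in TRα1+m. The difference was therefore spread over many nuclei of both mutant pools.

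**Figure D4:**
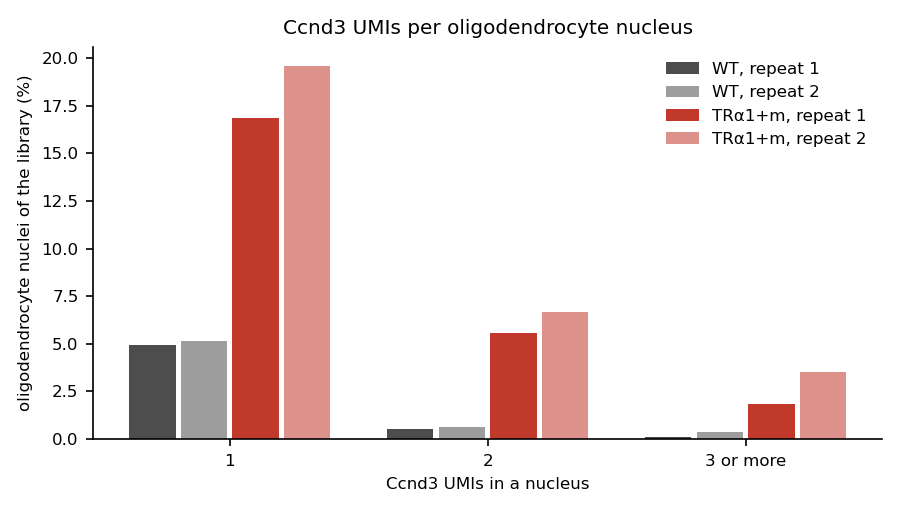
Share of oligodendrocyte nuclei of a library (percent, from 0) with 1, 2 or at least 3 Ccnd3 UMIs. Bars are libraries, WT in gray and TRα1+m in red, with repeat 2 in the lighter shade. Nuclei with 1 UMI make up 4.94% and 5.16% in WT and 16.9% and 19.6% in TRα1+m.

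Since nuclei differ in depth, each nucleus was also thinned to 1000 UMIs, leaving out the 11 to 75 shallower nuclei of each library. Ccnd3 was then found in 3.83% and 3.396% of WT and in 16.7% and 19.7% of TRα1+m oligodendrocyte nuclei, with median depths of 1517 to 1818 UMIs before thinning. In Neurons_1, whose median depth was 3802 to 5250 UMIs, thinned shares were 0.942% to 1.40%. This cluster had the lowest mean Ccnd3 of the main clusters compared, but its shares are no measure of free RNA alone. The sub-cluster annotated as MCH neurons held 552 of its 2112 Ccnd3 UMIs and 155 of its 1206 Cdkn1b UMIs. Astrocytes had 13.0% to 16.1% and microglia/macrophages 27.1% to 38.4%. In OPCs the thinned share was 2.10% to 2.51%, and the genotypes overlapped. Without thinning, OPCs had 3.58% to 5.21% and Neurons_1 4.49% to 5.40%, so that only the thinned share set OPCs above the neurons. Ccnd1 was present in 2.21% to 3.98% of thinned OPC nuclei, against 0.560% to 0.916% in Neurons_1, and Cdkn1b in 2.38% to 3.13% of thinned oligodendrocyte nuclei, against 0.738% to 0.893%.

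The share was higher in deeper nuclei of both genotypes, and in each of 4 depth bins, chosen after the values had been seen, both mutant libraries lay above both WT libraries. Among nuclei with 1200 to 1800 UMIs, 4.86% and 4.50% of WT and 24.4% and 27.5% of TRα1+m nuclei had a Ccnd3 UMI, at 36.0 and 34.9 against 211 and 266 CPM. Between 1800 and 3000 UMIs the shares were 8.31% and 7.36% in WT and 30.1% and 36.8% in TRα1+m.

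Markers of other cell types were measured in the same oligodendrocyte sums, since Ccnd3 was higher in microglia/macrophages and, for WT, in astrocytes. The microglia list of 8 genes summed to 99.5 to 141 CPM in WT and 100.2 to 185 CPM in TRα1+m, with Mrc1 at 0 in the mutant library of repeat 2. The astrocyte list summed to 1132 to 1391 CPM in WT and 958 to 1762 CPM in TRα1+m, the neuron list to 1689 to 1705 and 1225 to 1734 CPM, the endothelial list to 49.4 to 57.5 and 29.3 to 88.0 CPM, and the mural list to 25.5 to 53.1 and 13.1 to 36.6 CPM. These lists overlapped between genotypes. The tanycyte list did not overlap, at 466 to 549 CPM in WT and 575 to 804 CPM in TRα1+m. It held Col23a1, a collagen gene, at 11.2 and 11.1 CPM in WT and 158 and 169 CPM in TRα1+m (log2 fold change 3.94, SE 0.19, edgeR adjusted p 0.0070). Without Col23a1 the list overlapped, at 538 and 455 CPM in WT and 646 and 407 CPM in TRα1+m. The part of these cells in the Ccnd3 level was not tested. Col23a1 was the only gene of the marker lists called in oligodendrocytes, where 60 of the 73 were tested. The lists were chosen with earlier results of these data known, so that call is a description.

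Ccnd3 was then summed over subsets of the oligodendrocyte nuclei, which were chosen after the values had been seen, and in each of them both mutant libraries lay above both WT libraries. In nuclei with no UMI of the microglia list, 75.7% to 84.8% of each library, the mean was 41.7 CPM in WT and 228 CPM in TRα1+m, 5.46 times as high. In nuclei with fewer than 2 neuron list genes the ratio was 5.20. With no UMI of the microglia, astrocyte or tanycyte lists, 31 to 102 nuclei per library were left, and Ccnd3 was at 53.4 and 91.7 CPM in WT and at 233 and 295 CPM in TRα1+m, on 5 to 49 UMIs. The ratio of the means in these nuclei was 3.63, against 5.82 in all oligodendrocyte nuclei. The tanycyte list used here held Col23a1, itself higher in TRα1+m oligodendrocytes, and the subset was not remade without it. Nuclei with and without Opalin, a gene of mature oligodendrocytes, had ratios of 6.14 and 5.82. Nuclei with at least 2 genes of the list for newly formed oligodendrocytes, 18.9% to 27.9% of each library, had a ratio of 8.50, against 5.16 in the rest. The difference between these last ratios was not tested.

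**Figure D5:**
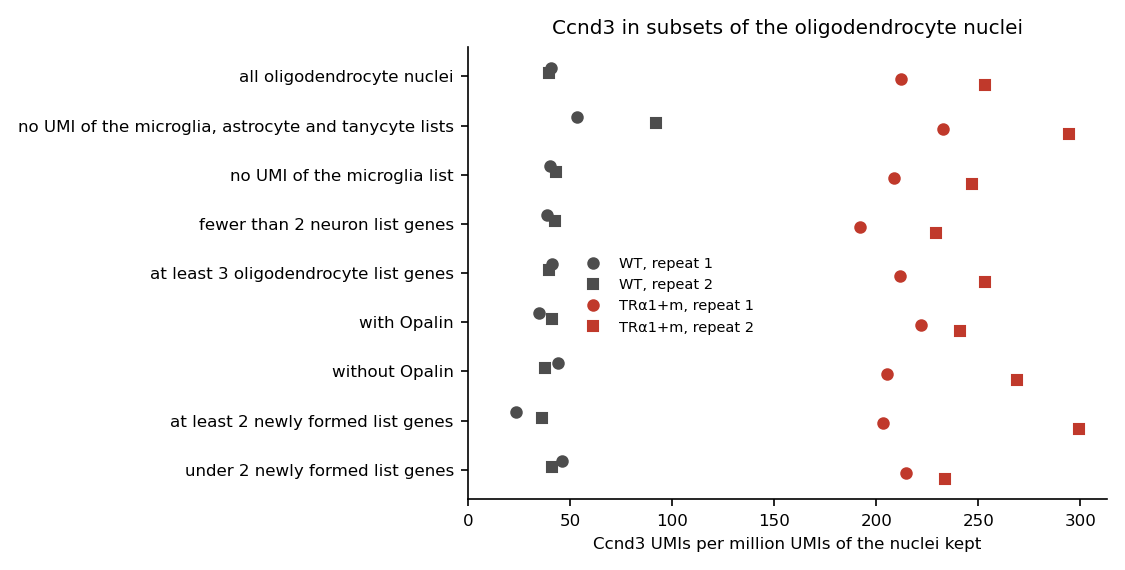
Ccnd3 level in all oligodendrocyte nuclei and in 8 subsets of them, in CPM of the nuclei kept, on a linear axis from 0. Each point is a library, circles for repeat 1 and squares for repeat 2, WT in gray and TRα1+m in red. WT libraries lie between 23.1 and 91.7 and TRα1+m libraries between 192 and 299 over all subsets.

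None of the genes next to Ccnd3 was called. Of 7 neighbors on chromosome 17, AI661453 had 0 UMIs in all 4 libraries, and the other 6 (Taf8, Bysl, Med20, Usp49, Tomm6 and Frs3) were tested in oligodendrocytes. Their log2 fold changes lay between -0.36 and 0.28, and none had an unadjusted p below 0.05 in edgeR or DESeq2 (edgeR adjusted p 0.999 for each). Bysl, which shares bases with Ccnd3, was at 5.40 and 9.58 CPM in WT and 9.24 and 6.73 CPM in TRα1+m.

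Other genes of the G1 to S transition were read from a list of 26 partners, including cyclin E, Rb and E2F genes, INK4 inhibitors and the Cdk-activating kinase. edgeR tested 16 of them in OPCs and 16 in oligodendrocytes and called none in either direction, and none had an unadjusted p below 0.05. DESeq2, which tested all 26, also called none. Their median log2 fold change was 0.06 in OPCs and 0.09 in oligodendrocytes, against 0.00 and 0.01 over all genes. Rb1, the retinoblastoma gene, was at 149 ± 5.08 CPM in WT oligodendrocytes and 151 ± 12.8 CPM in TRα1+m oligodendrocytes (SD, n = 2 each, log2 fold change 0.08). Tfdp2, a dimerization partner of E2F factors, was at 143 ± 3.29 and 129.6 ± 13.4 CPM there, and Mnat1, a subunit of the Cdk-activating kinase, at 91.9 ± 9.11 and 99.5 ± 3.78 CPM.

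The S and G2/M list of 28 genes had 9 tested genes in OPCs and 8 in oligodendrocytes, with no call in either tool and no unadjusted p below 0.05 in edgeR (1 in OPCs in DESeq2). The median log2 fold changes were 0.14 and 0.10. Pcna, the replication clamp, was at 24.0 ± 9.92 CPM in WT and 14.4 ± 1.13 CPM in TRα1+m OPCs (log2 fold change -0.77, SE 0.37, edgeR adjusted p 1.00). Hells, a chromatin remodeler, was at 16.1 ± 0.258 and 18.03 ± 0.754 CPM in OPCs, and Tyms, which makes thymidylate, at 17.6 ± 0.232 and 14.9 ± 2.65 CPM, neither of them called.

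The 16 p53 target genes other than Cdkn1a had 9 tested genes in OPCs and 13 in oligodendrocytes, again with no call and no unadjusted p below 0.05 in either tool. The medians were -0.21 in OPCs and -0.23 in oligodendrocytes, below those of all genes. Sesn1, a stress-responsive sestrin, was at 104 ± 3.62 CPM in WT and 75.6 ± 1.80 CPM in TRα1+m oligodendrocytes (log2 fold change -0.39, SE 0.16, edgeR adjusted p 0.953). Mdm2, the ubiquitin ligase of p53, was at 75.8 ± 2.99 and 61.4 ± 2.73 CPM, and Bax, a promoter of apoptosis, at 52.97 ± 11.1 and 58.8 ± 12.1 CPM there, neither of them called. In the other main clusters no gene of the 3 lists was called by edgeR.

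As a rough proxy for S or G2/M, nuclei with UMIs of at least 2 genes of the S and G2/M list were counted. They made up 3.77% and 5.21% of WT OPCs and 5.45% and 6.90% of TRα1+m OPCs, 4.49 ± 1.02% against 6.18 ± 1.03% (SD, n = 2 each). The mutant libraries were above the WT libraries, on 20 to 37 nuclei. With 2 libraries against 2, the exact permutation test (two-sided) cannot give a p below 0.333, which is the value it gave here. In oligodendrocytes the shares were 0.305% and 1.22% in WT and 0.593% and 0.849% in TRα1+m (exact permutation p 1.00). Nuclei labeled Neurons_1, deeper and as neurons post-mitotic, reached 5.03% to 6.18%, a level that 3 of the 4 OPC libraries did not exceed. Endothelial markers, a list of 8 genes, summed in that cluster to 68.1 to 167 CPM in WT and 154 to 175 CPM in TRα1+m. The part of endothelial cells in these shares was not tested. With at least 3 genes the shares were 1.18% to 2.93% in OPCs and 0.701% to 0.914% in Neurons_1. A UMI of Mki67 or Top2a was found in 1.77% to 2.93% of OPC nuclei and in 0.571% to 3.13% of Neurons_1 nuclei, and in the neurons the share was above 2.5% in both libraries of repeat 1 and below 1% in both of repeat 2.

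Over the 4 libraries, 112 OPC nuclei met this count and 1998 did not. Ccnd1 was at 50.9 CPM in the former, on 17 UMIs, and at 32.1 CPM in the latter. Cdk4 was at 35.9 CPM on 12 UMIs against 12.5 CPM, and Ccnd3 at 11.97 CPM on 4 UMIs against 20.9 CPM. With so few UMIs, and nuclei chosen by counts that grow with depth, these values are given without a test.

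The pattern of each member over the 20 sums of 5 clusters and 4 libraries was compared with that of other genes by the Pearson correlation of log2(CPM + 1). The 20 points share libraries, and clusters within a library share free RNA, so the values are a description. For Ccnd3 the 3 most similar genes were Anxa2 (0.97), Nfe2l2 (0.94) and Tor1aip1 (0.94). For Cdk6 they were St3gal6 (0.98), Etv6 (0.97) and Gm48606 (0.96), for Cdkn1b Etfb, Skap2 and Wls (0.96 each), and for Ccnd1 Cp (0.94), Vxn (0.93) and Phlda1 (0.92). Ccnd2 was most like Mthfd2l (0.88), Ext1 (0.82) and Gm32834 (0.81), and Cdk4 most like Hnrnpc (0.85), Epn1 (0.83) and Rab1a (0.82). Cdkn1c was most like Ppp1r12a (0.89), Zfp90 (0.88) and Rad51b (0.86), and Cdkn1a reached no more than 0.78, with Tpd52l2, followed by Svbp (0.70) and Ngly1 (0.69). Among the members themselves the closest pair was Ccnd3 with Cdkn1b (0.83), and the least alike Ccnd2 with Ccnd3 (-0.24).

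A fit that paired the libraries of each repeat as a block called 550 of the 12630 genes in oligodendrocytes (4.35%), and gave Ccnd3 a log2 fold change of 2.60.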

How the data were processed

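Nuclei were isolated from snap-frozen hypothalamus and sequenced with the 10x Genomics protocol. The authors counted reads, introns included, with Cell Ranger 5.0.1 on mm10 (GRCm38), and deposited raw UMI counts per gene and nucleus, with no normalization, together with a cluster for each of 56386 nuclei kept of 68190 barcodes. Nuclei under 900 UMIs or 700 genes, above 5% mitochondrial reads or with a scrublet doublet score of 0.18 or more had been removed, and clusters were made in Seurat. Doublets were not called again. Intron counting means that longer genes gain more UMIs, so levels were not compared between genes.

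UMIs were summed per library and cluster, with 47260127 to 59112785 UMIs per library. Genotypes were compared with robust quasi-likelihood F-tests in edgeR 4.0.16 (R 4.3.3; filterByExpr, TMM, Benjamini-Hochberg adjustment within a cluster, threshold 0.05, two-sided), which leave 2 residual degrees of freedom. Pools of mice were the replicates. The 2 pools of a genotype came from different repeats, so p-values of the main fit measure the spread between pools and repeats together. The study's own test treats nuclei as replicates and was not used. Neurons_2 and the non-neuronal cluster, which the study set aside, were not tested. The repeats pair the libraries by the study's design, and deviations of the same repeat correlated between genotypes (Pearson r across genes, 0.46 to 0.73 by cluster). As alternatives, DESeq2 1.42.0, RLE factors, all genes unfiltered, the bias-adjusted fit, the block, each library left out, equal nuclei per library and nuclei without neuron markers were run. Subsets of oligodendrocyte nuclei and depth bins were added after seeing the data. Figures were drawn with matplotlib 3.10.9.

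The members, gene lists and tests were chosen with earlier results of these data known. Named genes were all members, the 3 genes of each list with the highest mean CPM in OPCs and oligodendrocytes where none was called, and the 3 genes most like each member among those with a mean of at least 10 CPM. Col23a1, the neighbors of Ccnd3 and Bysl's values were named outside this rule. RefSeq start windows were matched for 5 of the 8 members by symbol.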

Additional observations from a re-analysis of the deposited data

Results flagged for a closer look

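Cdk6 had ratios on either side of 1 in the 2 clusters of the lineage. The mean of the mutant libraries was 1.79 times that of WT in OPCs and 0.375 times in oligodendrocytes, and each mutant library was above the WT library of its own repeat in OPCs and below it in oligodendrocytes. The oligodendrocyte values rest on 18 UMIs in all and were below the filter on low counts, so no direction is drawn from them, and the difference between the clusters was not tested.

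Ccnd3 was also present in the non-neuronal cluster, which was used in no comparison. It was at 169 and 116 CPM in the WT libraries and at 194 and 290 CPM in the TRα1+m libraries, with means of 142 and 242 CPM. The cluster held 34 to 80 nuclei per library, Ccnd3 was counted 17 to 47 times in each, and no test was run. The paper describes astrocyte and oligodendrocyte marker genes and higher doublet scores in this cluster, and left it out of further analysis as a precaution. The part of oligodendrocytes in its Ccnd3 level was not tested.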

How the results depend on the processing

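Ccnd3 in oligodendrocytes had a log2 fold change between 2.45 and 2.74 under every alternative run. The number of members called there was 1, and 0 to 1 when a library was left out, with 0 without either WT library. As Ccnd3 was chosen on this contrast, this describes the fits and is no support for the difference. No other member was called in any cluster under any alternative, and no gene of the 3 pathway lists in OPCs or oligodendrocytes. For members this too only describes the fits, since the sums over the main clusters served to choose them. A member that the filter removed from a fit could not be called in it. The OPC fit on nuclei without neuron markers tested only 1407 genes, against 11248 in the main fit. The number of genes called over all was less stable. In OPCs it was 0, and 1 with DESeq2, 11 with no filter on low counts, 64 with the repeat as a block and 1 to 8 with a library left out. In oligodendrocytes it was 13, and 72, 120, 550 and 0 to 196. In astrocytes it was 0, and 1 with DESeq2, 1 with no filter and 190 with the block. In microglia/macrophages it was 0, and 9 with no filter, 35 with the block and 0 to 72 with a library left out. In Neurons_1 it was 0, and 1 with DESeq2 and 2 with the block. The block changed no call of a member.

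The log2 fold change of Ccnd3 changed sign in microglia/macrophages without the WT library of repeat 2 (-0.20) or the mutant library of repeat 1 (-0.08), within a range of -0.20 to 0.40 over the libraries left out, and in Neurons_1 without the mutant library of repeat 1 (-0.17, in a range of -0.17 to 0.52). The share of oligodendrocyte nuclei with Ccnd3 was 3.61% in WT and 18.2% in TRα1+m after thinning to 1000 UMIs, 5.88% and 27.03% without thinning, and 4.71% and 26.4% at 1500 UMIs. OPC nuclei with at least 1 gene of the S and G2/M list made up 25.3% in WT and 23.8% in TRα1+m. That order is the reverse of the one with at least 2 genes. Neurons_1, labeled as neurons but with endothelial markers too, reached 30.5% and 31.8% with at least 1 gene. A count of 1 gene therefore does not single out S or G2/M nuclei. The same holds for at least 2 genes, at which Neurons_1 reached 5.59% in WT and 5.80% in TRα1+m, against 4.49% and 6.18% in OPCs. With at least 3 genes the OPC shares were 1.84% and 2.05%. Over all alternatives of the main comparisons, 233 kept the direction and the side of the threshold and 34 moved. The changes given above are part of this count. Of the alternatives of single genes, 153 kept both, 7 moved in size and 3 reversed in direction. The cause of these shifts was not tested. Where a library was left out, the spread of the single library left in its genotype was taken from the other genotype. Members under about 15 UMIs per library limit what could be detected.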
